A study of Rattus norvegicus with 6 samples.

Results

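The data described here are the transcript levels of 8 genes of the plasminogen system and its protease inhibitors in rat Schwann cells, namely Plat, Plau, Plaur, Serpine2, Serpinf1, Serpinb1a, Serpina3n and A2m. They were taken by symbol from the 29468 gene symbols of the deposited tables, 20494 of them with a value above 0 somewhere. The 8 genes were picked with their difference between the cell types known, so that difference is given as a description and without a test.

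Schwann cell precursors (SCPs) were isolated from peripheral nerves of wild-type LEWIS rat embryos at embryonic day 14, and repair Schwann cells (RSCs) from the distal part of the cut sciatic nerve of wild-type LEWIS rats aged 10 weeks, 1 week after the cut. SCPs received no treatment. The paper states that its grafted cells came from transgenic LEWIS rats expressing RFP, and gives no separate genotype for the sequenced cells. Both cell types were dissociated with collagenase and trypsin, RSCs for longer and in more collagenase, and both were briefly plated to remove fibroblasts and macrophages, so that developmental stage, injury and dissociation cannot be told apart. RNA of 3 separately prepared sets of cells per group was sequenced. Whether each set came from its own animals or litters is not given in the sources used here, so the p-values below measure the spread between preparations. Levels are in FPKM, fragments per kilobase of transcript scaled by the mapped fragments, summed over the named transcripts of a gene.

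Plasminogen is an inactive protein of plasma that is cut to plasmin, a serine protease that dissolves fibrin and degrades matrix. Tissue plasminogen activator (Plat) and urokinase (Plau) make the cut, the urokinase receptor (Plaur) holds urokinase on the cell surface, and serpins such as protease nexin-1 (Serpine2) inactivate the activators by a covalent trap. In peripheral nerve this system is known for clearing fibrin after injury, and Schwann cells are a known source of its activators.

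Each of the 8 genes was higher in all 3 RSC samples than in all 3 SCP samples, an arrangement that 24.9% of the 13003 tested genes showed. Because the genes were chosen on this contrast, nothing is read from that count. For testing, a gene needed a 6-sample mean of 1 FPKM or more, and 7 of the 8 passed, Serpina3n being the exception. Differences below are RSC minus SCP on the scale log2(FPKM + 1), where the added 1 understates the change of low genes. The median tested gene lay at -0.17 on that scale.

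**Figure D1:**
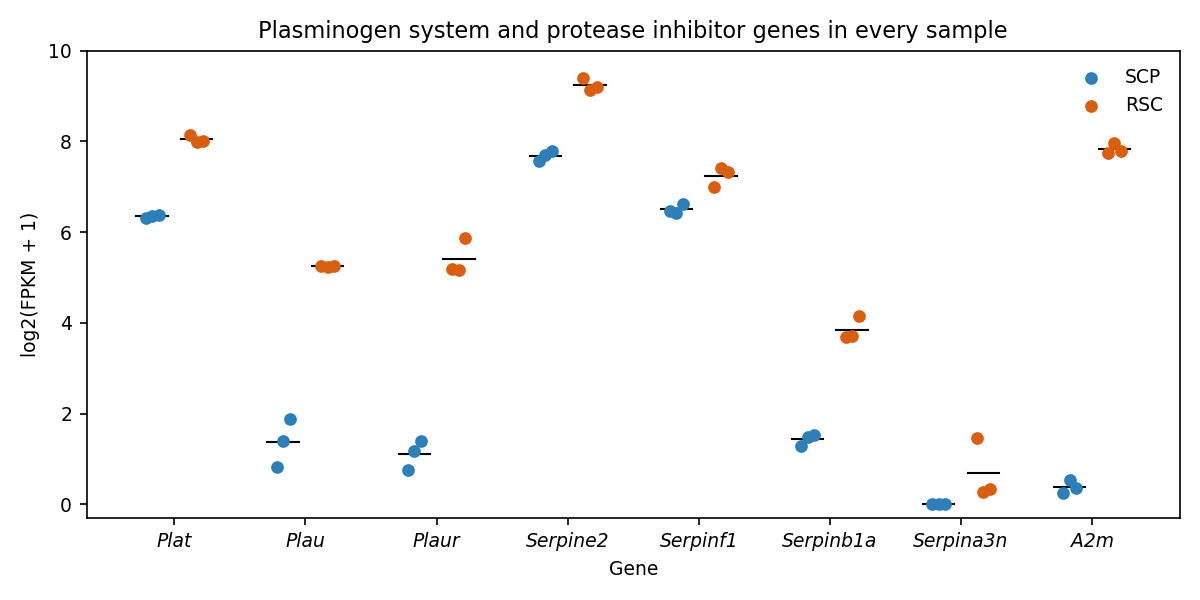
Levels of the 8 genes on the log2(FPKM + 1) scale (vertical axis) by gene (horizontal axis), with a point for each of the 3 SCP samples (blue) and 3 RSC samples (orange) and a black bar at the mean. Serpine2 is the highest gene in both groups, and A2m goes from below 1 to near 8.

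Samples were first checked against their labels. Sox10, the transcription factor that defines the Schwann lineage, measured 179, 175 and 181 FPKM in SCPs and 149, 143 and 143 FPKM in RSCs. S100b, a calcium-binding protein of maturing Schwann cells, measured 3.21, 11.7 and 19.3 FPKM in SCPs and 924, 782 and 843 FPKM in RSCs. Markers of several other cell types moved with the groups. The 18 leukocyte markers summed to 30.9, 65.1 and 81.6 FPKM in SCPs 1, 2 and 3 and to 3280, 3998 and 4106 FPKM in RSCs 1, 2 and 3. Of those tested, 17 of 17 were higher in RSCs at an unadjusted limma p under 0.01. Among all tested genes 18.1% passed in that direction. None of the 18 was at 0 in all SCPs, and Cybb was listed at 0 in all RSCs. The 7 fibroblast markers summed to 641 to 1021 FPKM in SCPs and 5366 to 8016 FPKM in RSCs. All 7 were higher in every RSC sample than in every SCP sample, and 6 of 7 passed the same threshold. The 8 neutrophil and mast cell markers stayed low, with sums of 1.19 to 4.34 FPKM in SCPs and 19.2 to 23.9 FPKM in RSCs. Of 4 tested, 2 passed it as higher in RSCs. Endothelial and mural markers summed to 96.8 to 282 FPKM in SCPs and 147 to 217 FPKM in RSCs, with Acta2 the largest part. They were mixed one by one. Of 8 tested, 1 (Cspg4) passed as higher in RSCs and none as higher in SCPs. Cspg4, Cdh5 and Tek were higher in every RSC sample than in every SCP sample, and Rgs5 was listed at 0 in all RSCs. The erythroid marker sums went the other way, from 17550 to 78431 FPKM in SCPs to 450 to 642 FPKM in RSCs. Of 6 tested, 4 passed as higher in SCPs, a direction in which 22.4% of all tested genes passed. Hbe1 (13854 to 68201 FPKM) and Hbz held most of the SCP sums and were listed at 0 in all RSCs. Hbb and Epor overlapped between the groups, and Alas2 was listed at 0 in all SCPs but not in all RSCs. In bulk samples fewer cells of a type and less RNA per cell cannot be told apart, and the part of these other cells in the results below was not tested.

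Plat, which encodes tissue plasminogen activator, was abundant in both groups. It measured 78.4, 81.1 and 82.4 FPKM in SCPs and 283, 254 and 257 FPKM in RSCs, and the spread within each group was small beside the gap between them. The means were 80.6 ± 2.04 and 265 ± 16.1 FPKM (SD, n = 3), a ratio of 3.28 and a log2 difference of 1.70 with a standard error of 0.05. Plat thereby moved from place 923 to place 302 among the 13003 tested genes ordered by level. All of its signal lay in 1 of the 3 listed transcripts, on chromosome 16 at 74098263 to 74122897 (rn6, as are all gene positions below). Per unit of Sox10 in the same sample, Plat was 0.437 to 0.463 in SCPs and 1.77 to 1.90 in RSCs.

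Plau, which encodes urokinase, was close to the lower end of the measured range in SCPs, at 0.775, 1.63 and 2.65 FPKM, and reached 37.1, 36.6 and 37.0 FPKM in RSCs. The RSC samples agreed closely, while the SCP samples differed among themselves by more than 3-fold. The means were 1.69 ± 0.941 and 36.9 ± 0.271 FPKM (SD, n = 3), a ratio of 21.9 and a log2 difference of 3.88 with a standard error of 0.30. The close agreement of the RSC samples holds for the named transcript alone, on chromosome 15 at 3644296 to 3650765. Unnamed transcripts over the gene held a further 4.53, 29.1 and 13.6 FPKM in RSCs 1, 2 and 3 and none in SCPs, which took the RSC values to 41.6, 65.6 and 50.7 FPKM and the log2 difference to 4.36.

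Plaur, which encodes the receptor of urokinase, followed its ligand. Its levels were 0.682, 1.27 and 1.62 FPKM in SCPs and 35.6, 35.1 and 57.9 FPKM in RSCs, with RSC 3 above the other RSC samples. The ratio of the means was 36.0 and the log2 difference 4.31 with a standard error of 0.30. In RSC 3 the higher value came with another division between the 2 listed transcripts on chromosome 1 at 81328171 to 81344954. There the transcript NM_017350.1 held 44.3 FPKM and NM_134352.1 held 13.6 FPKM, whereas in RSCs 1 and 2 all named signal was in NM_134352.1, for which Cufflinks flagged low data in every sample. Unnamed transcripts added 5.40 FPKM in RSC 1, slightly more in RSC 2 and nothing in RSC 3, so the sums of 41.0, 41.1 and 57.9 FPKM lay closer together.

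Plau and Plaur were both lowest in SCP 1 and highest in SCP 3, the order in which the leukocyte marker sums also ran, and 14 of the 18 leukocyte markers had their lowest value in SCP 1. Among tested genes the profile nearest to that of Plau, by root mean square distance of log2(FPKM + 1) over the 6 samples, was Aqp1 (0.23), a water channel, and the nearest to Plaur was Adm (0.22), which encodes adrenomedullin.

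**Figure D2:**
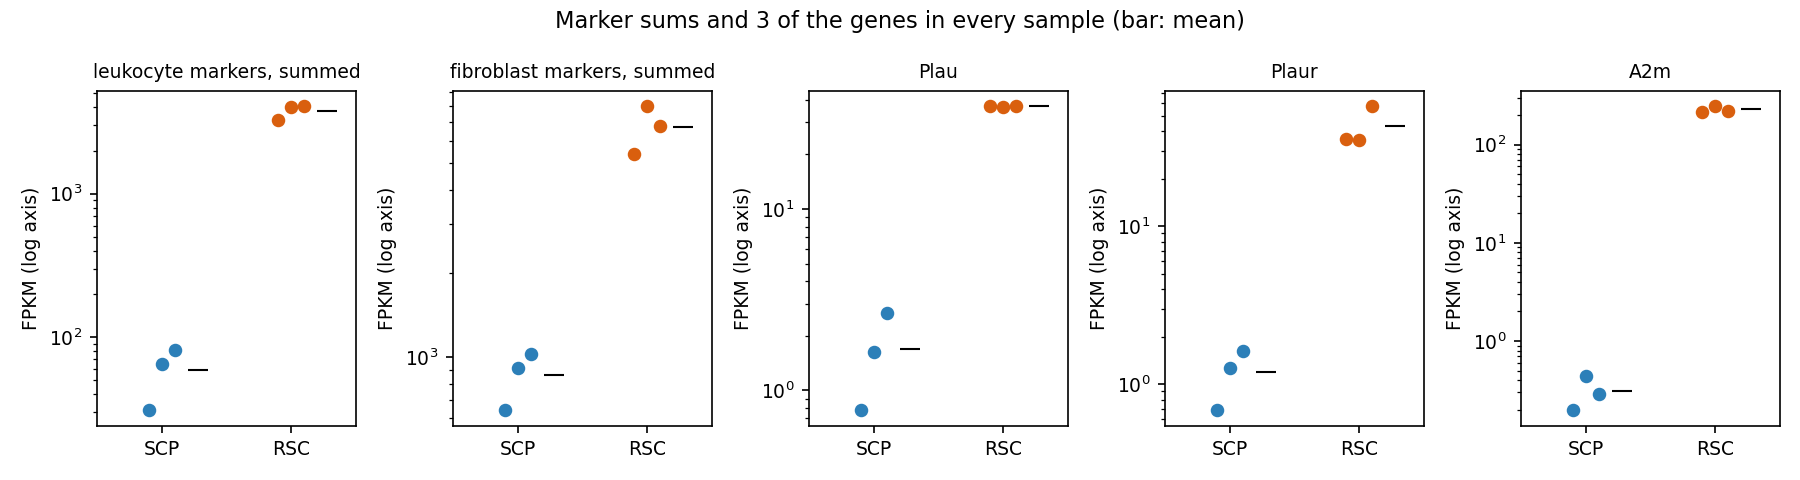
Summed FPKM of the leukocyte and fibroblast marker lists and FPKM of Plau, Plaur and A2m (vertical log axes), with a point for each SCP sample (blue) and RSC sample (orange) in replicate order and a bar at the mean. In the leukocyte, fibroblast, Plau and Plaur panels the SCP points stand in the order 1, 2, 3 from low to high, and all RSC points lie above all SCP points in every panel.

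Of the 8 genes, 6 were found in the RefSeq promoter table on the GRCr8 build, which differs from the build of the expression tables, and the 250 bases before their start were searched on both strands for 6 motifs. The share of all 33469 rat windows holding each was 6.34% for TGANTCA (AP-1), 7.67% for TTCNNNGAA (STAT), 1.59% for TGACGTCA (CRE), 30.5% for GGGCGG (GC box), 34% for CCAAT and 12.9% for TATAAA. A match describes the letters and is neither a shown binding site nor a cause. The windows of urokinase and its receptor are given because these genes rose side by side from near 1 FPKM, with motif letters in capitals. Plau lies on the minus strand at chr15:3511988-3512237 and Plaur on the plus strand at chr1:89181113-89181362.
Plau: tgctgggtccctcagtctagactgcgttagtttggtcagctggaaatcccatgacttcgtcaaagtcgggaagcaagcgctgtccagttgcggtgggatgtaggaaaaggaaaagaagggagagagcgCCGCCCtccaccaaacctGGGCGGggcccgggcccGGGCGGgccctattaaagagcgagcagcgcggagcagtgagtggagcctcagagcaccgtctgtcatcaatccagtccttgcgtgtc
Plaur: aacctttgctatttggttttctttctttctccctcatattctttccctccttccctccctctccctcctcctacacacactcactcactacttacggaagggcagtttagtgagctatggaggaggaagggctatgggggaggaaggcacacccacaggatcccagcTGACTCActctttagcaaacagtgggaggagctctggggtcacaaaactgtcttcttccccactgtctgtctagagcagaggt
They shared none of the 6 motifs. Plau held 3 GC boxes, 1 of them on the reverse strand, and a GC content of 60% against a median of 51.2% over all windows. Plaur held 1 AP-1 match from -83 to -77 relative to the start, and its GC content equalled the median.

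Serpine2, which encodes protease nexin-1, an inhibitor of urokinase, tissue plasminogen activator and thrombin, was the most abundant of the 8 genes in both groups. It measured 188, 207 and 222 FPKM in SCPs and 672, 562 and 592 FPKM in RSCs, well apart. The means were 206 ± 16.6 and 608 ± 56.7 FPKM (SD, n = 3), a ratio of 2.96 and a log2 difference of 1.56 with a standard error of 0.10. It moved from place 350 to place 127 by level, and per unit of Sox10 it was 1.05 to 1.22 in SCPs and 3.92 to 4.52 in RSCs. Nearly all signal lay in 1 of its 4 transcripts on chromosome 9 at 85560852 to 85626125, which Cufflinks flagged as low data in RSCs 2 and 3. A second transcript, XM_006245162.2, held 20.6 and 22.8 FPKM in SCPs 1 and 2 and was listed at 0 in SCP 3 and in all RSCs. Its window at chr9:88637203-88637452 on the minus strand is shown for contrast with the 2 above, since it is the densest in GC boxes.
Serpine2: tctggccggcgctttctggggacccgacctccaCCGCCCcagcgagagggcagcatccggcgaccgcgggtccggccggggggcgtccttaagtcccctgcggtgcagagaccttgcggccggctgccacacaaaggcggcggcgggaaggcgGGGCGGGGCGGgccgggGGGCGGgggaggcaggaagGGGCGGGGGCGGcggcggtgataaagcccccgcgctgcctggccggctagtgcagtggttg
It held 6 GC boxes, a pair of which share 1 base, and a GC content of 76.8%.

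The balance of Plat and Plau against Serpine2 moved far less than the levels. Other inhibitors are not part of these ratios. Plat per Serpine2 was 0.416, 0.391 and 0.372 in SCPs and 0.422, 0.452 and 0.434 in RSCs, so the groups did not overlap but SCP 1 and RSC 1 were nearly equal. Plat and Plau together stood at 79.2 to 85.1 FPKM in SCPs and at 291 to 320.2 FPKM in RSCs. Their sum per Serpine2 was 0.420, 0.399 and 0.384 in SCPs and 0.477, 0.517 and 0.496 in RSCs. What changed more was the make-up of the activators. Plat exceeded Plau 101, 49.8 and 31.1 times in SCPs and 7.64, 6.95 and 6.93 times in RSCs, and the low SCP values of Plau set the spread of the first. Plau per Plaur was 1.14, 1.28 and 1.64 in SCPs and 1.04, 1.04 and 0.639 in RSCs. These values rest on named transcripts, and with unnamed transcripts added Plau per Plaur was 1.01, 1.60 and 0.875 in RSCs, overlapping the SCPs, and Plat per Plau was 6.81, 3.87 and 5.07 in RSCs. These ratios are of transcripts and say nothing of enzyme activity.

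**Figure D3:**
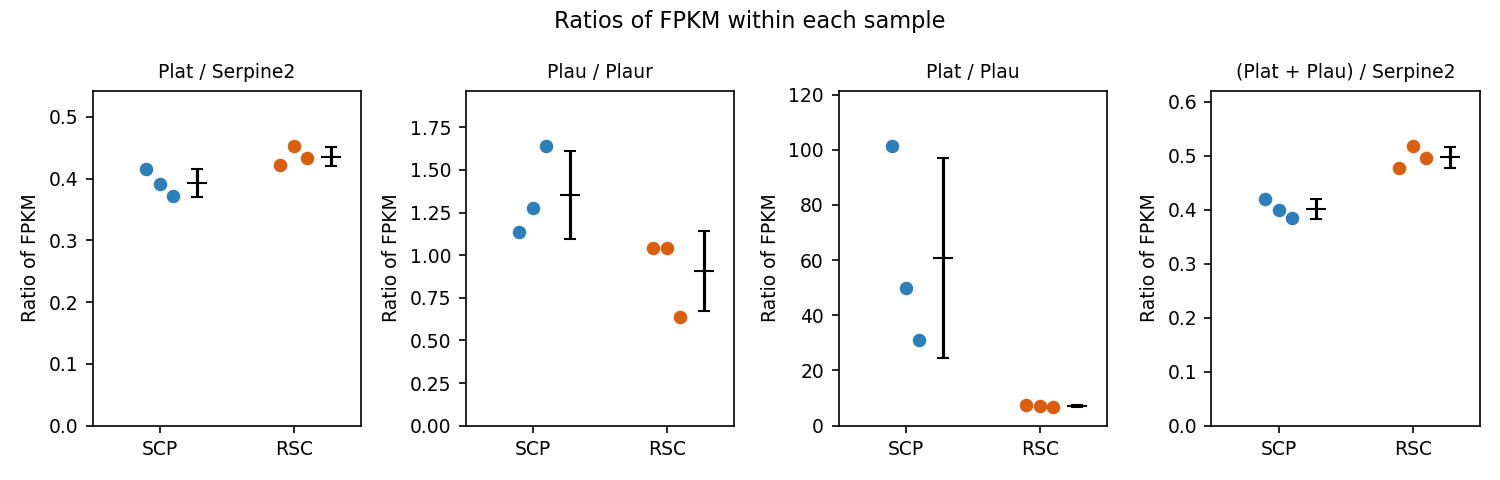
Ratios of FPKM within each sample (vertical axes from 0) for SCPs (blue) and RSCs (orange), with the mean and SD of 3 samples in black. Plat per Serpine2 runs from 0.372 to 0.452 over all 6 samples, while Plat per Plau falls from 31.1 or more in SCPs to 7.64 or less in RSCs.

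Serpinf1 encodes pigment epithelium-derived factor, a serpin that does not inhibit proteases and is known as a neurotrophic and antiangiogenic protein. It changed least in ratio among the 7 genes tested. Its levels were 87.6, 84.8 and 97.9 FPKM in SCPs and 126, 168 and 159 FPKM in RSCs, with RSC 1 nearest to the SCPs. The ratio of the means was 1.68 and the log2 difference 0.73 with a standard error of 0.14. It lies on chromosome 10 at 62241750 to 62254145.

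Serpinb1a encodes an intracellular inhibitor of neutrophil serine proteases. It was low in SCPs at 1.45, 1.80 and 1.87 FPKM and stood at 11.9, 12.1 and 16.7 FPKM in RSCs, with RSC 3 highest. The ratio of the means was 7.94 and the log2 difference 2.42 with a standard error of 0.17. On chromosome 17 at 32903089 to 32911498, unnamed transcripts added 5.55 and 5.84 FPKM in RSCs 2 and 3 alone, which took those samples to 17.6 and 22.6 FPKM.

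Serpina3n encodes a secreted acute-phase inhibitor, the homolog of human alpha-1-antichymotrypsin, and was barely present. It was listed at 0 in all SCPs and measured 1.74, 0.205 and 0.271 FPKM in RSCs, so that RSC 1 alone set most of the mean of 0.739 ± 0.868 FPKM (SD, n = 3). No fold is given against a group listed at 0. It sits in a cluster of Serpina3 genes on chromosome 6 at 128073344 to 128080878, where Serpina3m, Serpina3c and LOC299277 were listed at 0 in all samples and LOC299282 did not exceed 0.062 FPKM. No unnamed transcript overlapped it. Its window at chr6:129088142-129088391 on the plus strand is shown because it holds the single STAT match among the 6 genes.
Serpina3n: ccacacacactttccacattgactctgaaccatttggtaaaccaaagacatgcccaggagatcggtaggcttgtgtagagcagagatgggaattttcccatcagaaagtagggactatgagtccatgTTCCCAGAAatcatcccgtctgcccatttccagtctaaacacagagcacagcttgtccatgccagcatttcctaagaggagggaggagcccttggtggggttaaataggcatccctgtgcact
The match TTCCCAGAA runs from -123 to -115.

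A2m encodes alpha-2-macroglobulin, a large secreted inhibitor that traps proteases of many classes. It had the widest change of the 8 genes. Its levels were 0.196, 0.441 and 0.290 FPKM in SCPs and 215, 249 and 222 FPKM in RSCs, so that it took place 7 of the 8 genes in SCPs and place 3 in RSCs. The ratio of the means was 740 and the log2 difference 7.46 with a standard error of 0.10, in place 14 of the 13003 tested genes ordered from most raised in RSCs. It made up 0.0549% to 0.117% of the summed FPKM of the 8 genes in SCPs and 15.5% to 18.9% in RSCs. The sum itself went from 358, 378 and 408 FPKM to 1382, 1318 and 1341 FPKM.

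The A2m value is uncertain. A second gene model, LOC100911545, begins 63.7 kilobases beyond A2m on chromosome 4 (154309426 to 154359138 for A2m, 154422862 to 154473042 for the second model) and had the nearest profile of the other tested genes, at a distance of 0.06. It measured 0.183, 0.412 and 0.290 FPKM in SCPs and 202, 234 and 209 FPKM in RSCs. The A2m value divided by that of the second model was 1.06 in all 3 RSC samples, and 1.07, 1.07 and 1.00 in SCPs. Reads may be shared between them, and how Cufflinks divided such reads is not given in the sources used here. The sum of both was 416, 484 and 430.3 FPKM in RSCs, and the log2 difference of the sum was 8.12.

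**Figure D4:**
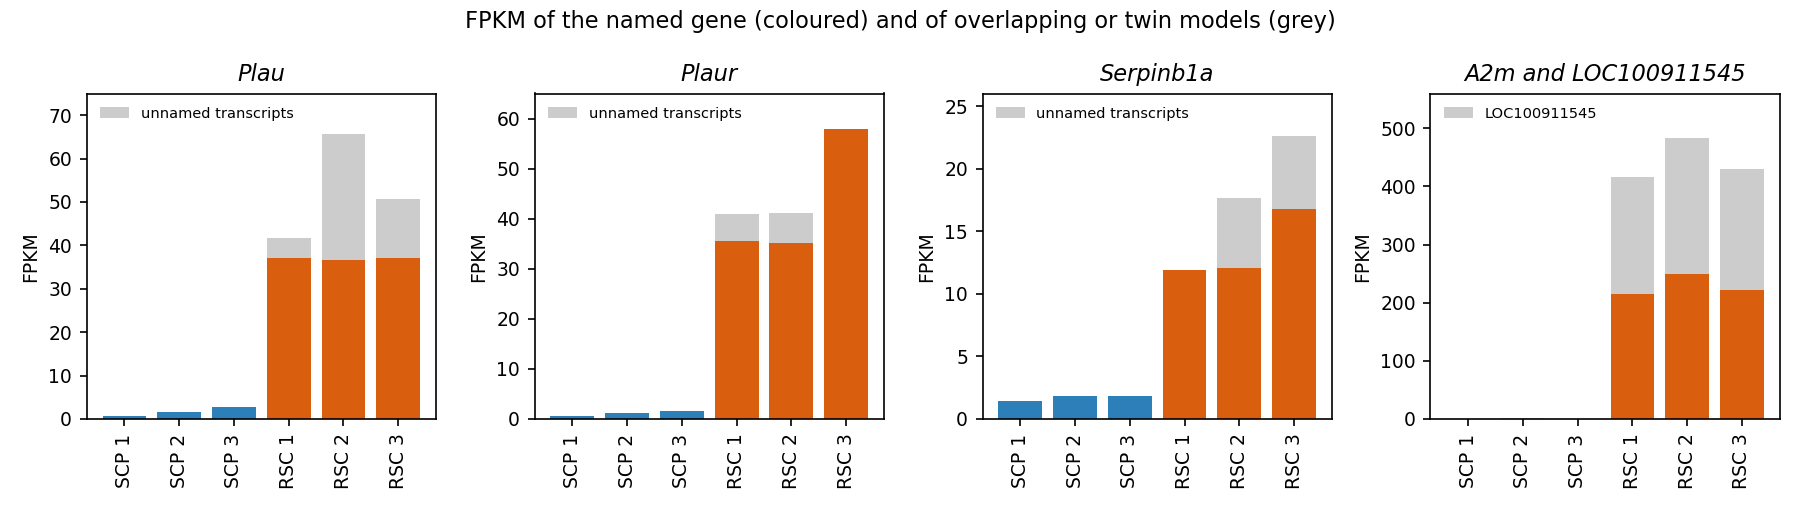
FPKM (vertical axes from 0) of the named gene in each sample (blue for SCPs, orange for RSCs) with, in grey on top, unnamed transcripts over Plau, Plaur and Serpinb1a or the model LOC100911545 for A2m. Plau reaches 65.6 FPKM in RSC 2 with the unnamed part, and the grey part of the A2m panel is nearly as tall as the coloured part in each RSC sample.

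By mean level the genes stood in the order Serpine2, Serpinf1, Plat, Serpinb1a, Plau, Plaur, A2m and Serpina3n in SCPs. The ranges over samples overlapped between Serpinb1a and Plau and between Plau and Plaur, and there was a 47.2-fold step from Plat down to Serpinb1a. In RSCs the order was Serpine2, Plat, A2m, Serpinf1, Plaur, Plau, Serpinb1a and Serpina3n, and only Plaur and Plau overlapped. The nearest profiles of the remaining genes were Anxa5 for Plat (0.14), Ppp1r15a for Serpine2 (0.27), Arpc3 for Serpinf1 (0.14), Sowahc for Serpinb1a (0.20) and Klrb1b for Serpina3n (0.54).

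The other genes of the system were compared with limma over all 13003 tested genes, where an unadjusted p under 0.01 was reached by 18.1% in the direction of RSCs and by 22.4% in that of SCPs. After median-of-ratios scaling 55.7% of the calls were higher in RSCs, against 44.6% here. Of 32 further plasminogen system genes 18 were tested, and 11 were higher in RSCs, 3 were higher in SCPs and 4 did not pass, with a median log2 fold change of 0.99 beside -0.17 for all tested genes. Transcripts of plasminogen itself (Plg) were nearly absent and did not exceed 0.205 FPKM in any sample. Plasminogen being a protein of plasma, this does not measure how much of the substrate was present. Transcripts of docking proteins for plasminogen were abundant. Anxa2, the annexin that binds plasminogen and Plat, rose from 69.7, 95.2 and 91.2 FPKM to 669, 643 and 717 FPKM (log2 fold change 2.98, limma adjusted p = 3.8e-05), and its partner S100a10 rose from 148 to 165 FPKM to 616 to 668.5 FPKM (2.06, limma adjusted p = 2.5e-05). Plgrkt, the plasminogen receptor with a C-terminal lysine, rose by 0.64 with a limma adjusted p of 0.0103, and the call was lost without SCP 2, SCP 3, RSC 1 or RSC 3 and with the replicate block. It was also lost when the highest transcript stood for the gene (0.31) and when unnamed transcripts were added (1.08).

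Vtn (vitronectin), a matrix protein that binds Plaur, rose from 0.130 to 0.459 FPKM to 11.0 to 14.7 FPKM (log2 fold change 3.49, limma adjusted p = 0.00011). Itgam, an integrin chain that binds Plaur and is also in the leukocyte list, had the largest rise of these genes at 4.19 (limma adjusted p = 6.0e-05). Lrp1, the endocytic receptor that clears complexes of activators and inhibitors and of A2m, rose from 52.7 to 58.0 FPKM to 115 to 132 FPKM (1.14, limma adjusted p = 0.00020). Mrc2, a collagen receptor that associates with Plaur, fell by 1.69 (limma adjusted p = 0.00026), Serpini1 (neuroserpin, an inhibitor of Plat) fell by 1.34 (limma adjusted p = 0.0045) to 0.0742 to 0.231 FPKM, and Eno1, a glycolytic enzyme that can bind plasminogen, fell by 1.15 (limma adjusted p = 0.0035). Serpinf2, the plasmin inhibitor, was not tested and measured 0.961 to 2.02 FPKM in SCPs and 0.0967 to 0.424 FPKM in RSCs. Serpinb2 (PAI-2) was above 0 in 1 SCP sample only.

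**Figure D5:**
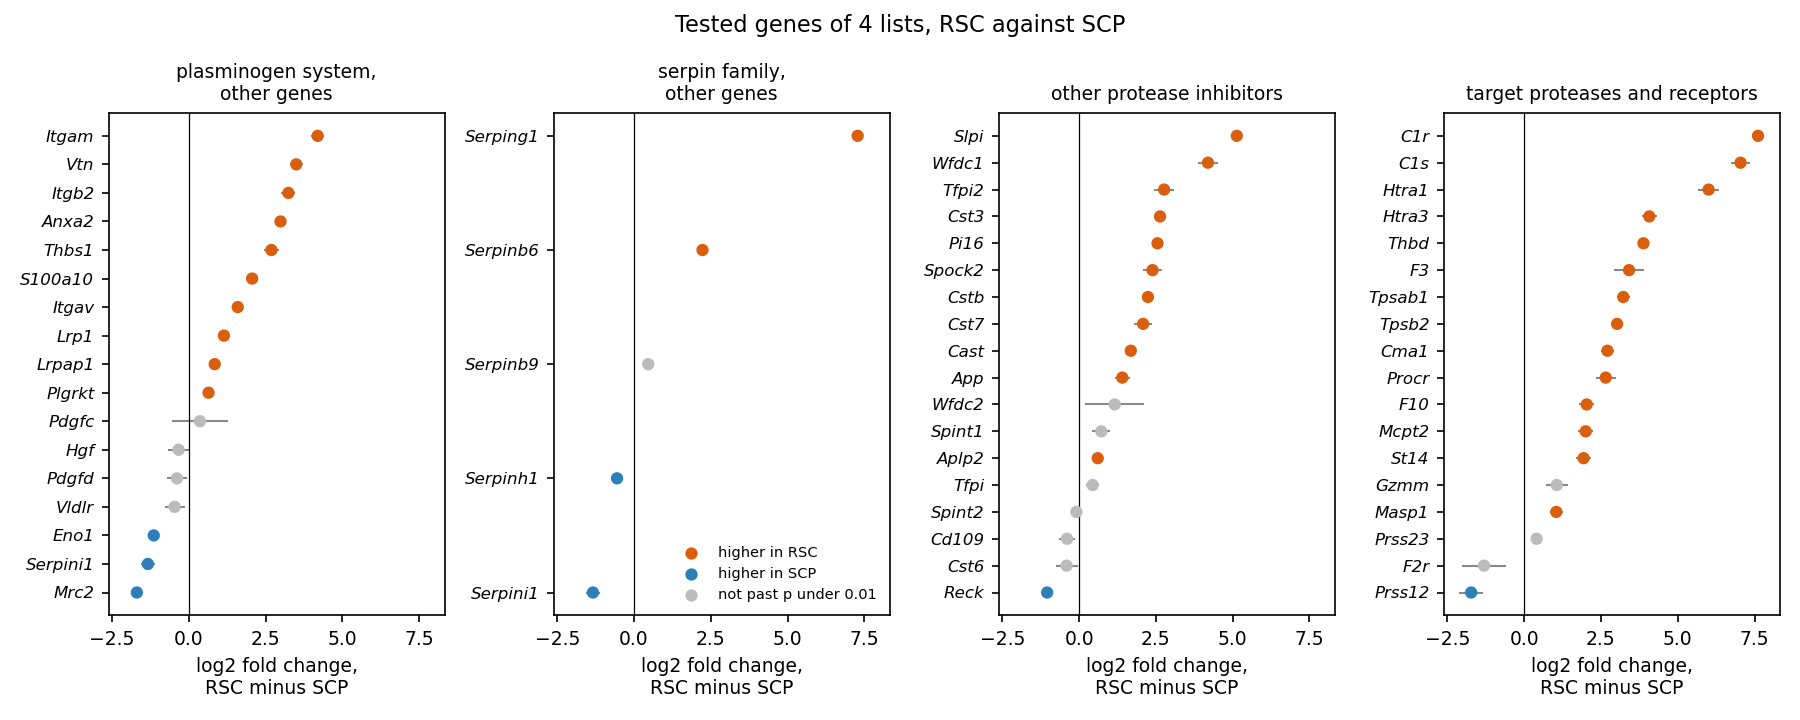
Log2 fold change, RSC minus SCP (horizontal axis), of the tested genes of the 4 lists that are reported here (vertical axis), with bars for the standard error and colour for genes higher in RSCs (orange), higher in SCPs (blue) or not past p under 0.01 (grey). C1r, C1s and Serping1 lie farthest to the right, above 7.

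Of 37 further serpins 6 were tested, 3 of them higher in RSCs and 2 in SCPs, with a median of 1.35. They share 6 symbols with the plasminogen list. Serping1, the C1 inhibitor of the complement cascade, measured 5.07, 3.63 and 4.66 FPKM in SCPs and 793, 959 and 786 FPKM in RSCs (log2 fold change 7.28, limma adjusted p = 5.7e-06), which exceeded Serpine2 in RSCs. Serpinb6 rose by 2.23 (limma adjusted p = 0.00014), but by 0.16 and without passing once unnamed transcripts in its span were added. Serpinh1, a collagen chaperone that is not a protease inhibitor, fell by 0.55 (limma adjusted p = 0.0093), a call that was lost after median-of-ratios scaling (-0.34) and quantile normalization (-0.28), with no variance trend, and without SCP 1, RSC 1 or RSC 2. In the Serpinb family, Serpinb9, an inhibitor of granzyme B, measured 9.56 to 13.4 FPKM in SCPs and 13.7 to 17.5 FPKM in RSCs without passing (0.46), but passed after median-of-ratios scaling (0.66). Serpinb6b reached 1.89 FPKM and Serpinb8 0.862 FPKM, both in RSCs, and Serpinb1b, Serpinb7 and Serpinb10 stayed at or below 0.492 FPKM.

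Of 44 other protease inhibitors 18 were tested, 11 were higher in RSCs and 1 was higher in SCPs, with a median of 1.55. Slpi, an inhibitor of leukocyte elastase, was listed at 0 in all SCPs and measured 38.6, 31.2 and 33.1 FPKM in RSCs (limma adjusted p = 2.2e-05). Cst3 (cystatin C), an inhibitor of cysteine cathepsins, was the most abundant, with 257 to 327 FPKM in SCPs and 1669 to 1892 FPKM in RSCs (log2 fold change 2.64, limma adjusted p = 3.0e-05). Wfdc1 rose by 4.20 (limma adjusted p = 0.00027), and Tfpi2, a Kunitz inhibitor of plasmin, rose by 2.77 (limma adjusted p = 0.0011). Tfpi, the inhibitor of the tissue factor pathway, measured 11.8 to 15.9 FPKM in SCPs and 16.0 to 25.4 FPKM in RSCs and did not pass (0.44), but passed when the highest transcript stood for the gene (0.82). Reck, a membrane-anchored inhibitor of metalloproteinases, fell by 1.04 (limma adjusted p = 0.00072), from 61.0 to 68.6 FPKM to 28.8 to 35.3 FPKM. Pzp, the closest relative of A2m in the list, did not exceed 0.180 FPKM.

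Of 41 target proteases and receptors 18 were tested, 14 were higher in RSCs and 1 was higher in SCPs, with a median of 2.68. Transcripts of the complement proteases that Serping1 inhibits were almost absent from SCPs. C1r rose from 0.723 to 1.86 FPKM to 385 to 496 FPKM (log2 fold change 7.61, limma adjusted p = 1.4e-05) and C1s from 0.382 to 2.21 FPKM to 258 to 317 FPKM (7.05, limma adjusted p = 3.8e-05). Htra1, a secreted serine protease that cleaves matrix, rose by 6.01 (limma adjusted p = 7.2e-05), and Prss12 (neurotrypsin) fell by 1.72 with a limma adjusted p of 0.0127, a call that was lost without any 1 of the samples other than SCP 2. F2r, the thrombin receptor PAR1, measured 45.2, 6.37 and 41.1 FPKM in SCPs and 8.80, 9.42 and 8.30 FPKM in RSCs, and did not pass. Without SCP 2, or with unnamed transcripts added, it passed with log2 fold changes of -2.17 and -2.19.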

How the data were processed

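RNA of 3 SCP and 3 RSC samples was sequenced by the authors as stranded, paired-end mRNA libraries and mapped to rn6. The submitters' processing notes name FastQC 0.11.2, TopHat2 2.1.0 and Cufflinks 2.2.1. The authors deposited, per sample, Cufflinks FPKM and the coverage (signal) of each transcript. No counts were used, so absolute depth is unknown and precision rests on 3 samples per group. Coverage per FPKM, a relative depth, was 0.79 to 1.00 of the highest sample's. FPKM of named transcripts were summed by symbol, leaving out 77 transcripts per table whose names a spreadsheet had turned into dates. Unnamed transcripts held 18.6% to 31.9% of FPKM.

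Genes with a mean FPKM of at least 1 were compared with limma 3.58.1 (R 4.3.3) on log2(FPKM + 1) with a variance trend, two-sided, at an unadjusted p under 0.01. Benjamini-Hochberg adjustment ran over 13003 genes. In data simulated for RSC minus SCP over 13003 genes, of which 200 were changed by log2 3, 90.5% of the changed and 1.11% of the unchanged genes were called. Smaller changes were not simulated, so the 90.5% does not apply to the smaller differences given here. Far more genes were called in the data themselves, 5268 of 13003. The 8 genes and all lists were chosen with earlier results of these data known. The text names the 8 genes, up to 3 genes with the largest change in each direction per list, a fixed set of system genes, the nearest profiles and markers, with other genes chosen after their values were seen. Some genes that this rule names are counted in their lists and not reported here by name. Alternatives covered the pseudocount, filter, scaling, variance trend, replicate block, adjusted p, transcript choice, unnamed transcripts and each sample left out. Adding LOC100911545 to A2m was chosen after seeing the data. The labels name no batch.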

Additional observations from a re-analysis of the deposited data

How the results depend on the processing

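All 8 genes stayed higher in RSCs under each alternative in which a value was computed. Leaving out a sample or changing the pseudocount could not alter this, because every RSC value already lay above every SCP value. Nothing is read from the direction, as the 8 genes were chosen on this contrast. Their log2 differences ranged over 1.60 to 1.91 for Plat, 3.61 to 4.52 for Plau, 4.08 to 5.09 for Plaur, 1.49 to 1.77 for Serpine2, 0.62 to 0.94 for Serpinf1, 2.27 to 2.91 for Serpinb1a, 0.31 (without RSC 1) to 2.57 for Serpina3n and 7.39 to 9.17 for A2m, with the highest values of the low genes under a pseudocount of 0.1 and those of Plat, Serpine2 and Serpinf1 under median-of-ratios scaling, which moved the median gene from -0.17 to 0.01. Raising the filter to a mean FPKM of at least 5 left 9 target proteases and receptors to test, of which 7 passed against 15. At that filter 4084 of all 8606 tested genes passed. Without the filter the median log2 fold changes were 0.17 for the plasminogen system, -0.02 for serpins, 0.37 for other inhibitors and 0.90 for targets. The median of all 20494 genes was then -0.07. Called as higher in RSCs were 16 of 34 targets, beside 2745 of all 20494 genes. With unnamed transcripts added, Pdgfc turned from 0.36 to -2.43 and Pdgfd from -0.39 to 1.15, and both passed only then among the settings that kept all samples. Without SCP 1 Pdgfc passed at 1.44. Over the genes of the 4 lists 25 values of 6 genes lost their call and 7 values of 5 genes gained one without a change of sign. The 2 reversed values, of Pdgfc and Pdgfd, gained one as well.

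Calls ranged with each sample left out over 4460 to 4874 for all genes against 5268, 13 to 16 for the plasminogen system, 4 to 5 for serpins, 12 to 12 for other inhibitors and 13 to 16 for targets. At an adjusted p under 0.01, 4105 genes were called, and with unnamed transcripts added 7708 of 14107. Same-numbered samples did not deviate together (correlations of 0.04, -0.0049 and 0.03), and with the replicate block 4275 genes were called, with 13 for the plasminogen system, 5 for serpins, 12 for other inhibitors and 14 for targets. With 3 samples against 3, an exact permutation test of 1 value cannot go below 0.1.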

Other observations

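The 3 genes given next were chosen after their values were seen, and stand beside F2r and Tfpi, which did not pass. Thbd, which encodes thrombomodulin, the receptor that turns thrombin toward protein C, rose from 0.547, 1.12 and 0.681 FPKM in SCPs to 23.9, 25.8 and 25.6 FPKM in RSCs (log2 fold change 3.88, limma adjusted p = 4.6e-05). Procr, the protein C receptor, rose from 3.34 to 9.34 FPKM to 37.0 to 43.7 FPKM (2.66, limma adjusted p = 0.0012). F3, which encodes tissue factor, the starter of coagulation, rose from 0.955 to 6.90 FPKM to 38.6 to 49.6 FPKM (3.42, limma adjusted p = 0.0026). Prothrombin (F2) did not exceed 0.508 FPKM in any sample and was not tested.

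Transcripts of mast cell proteases were among the targets that rose. Tpsab1 and Tpsb2, the tryptases, were listed at 0 in all SCPs and measured 6.90 to 9.46 and 6.78 to 7.72 FPKM in RSCs. Cma1 (chymase) measured 5.33 to 6.72 FPKM in RSCs and was listed at 0 in 2 of 3 SCPs. The mast cell marker Cpa3 stood at 7.20 to 10.1 FPKM in RSCs and did not exceed 0.293 FPKM in SCPs. Other mast cell genes of the lists were mixed. Mcpt2 measured 2.80 to 3.79 FPKM in RSCs, while Mcpt1 and Mcpt4 were listed at 0 in all samples. Kit overlapped, at 1.08 to 2.69 FPKM in SCPs and 0.926 to 6.20 FPKM in RSCs. Ms4a2 stood at 1.30 to 1.87 FPKM in RSCs and was not tested. The part of mast cells in the protease levels was not tested.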
